A study of Homo sapiens with 9 samples.

Results

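The 10 genes described here are NRAS, at the head of the RAS-MAPK cascade, and genes of the pathway's output and negative feedback. The latter include the ETS transcription factors ETV4 and ETV5. The others are the ERK phosphatases DUSP4, DUSP5 and DUSP6 and the Sprouty family genes SPRY1, SPRY2, SPRY4 and SPRED1. All 10 were chosen by name for their place in the pathway, with earlier results of these data known. They were found among the 60676 genes of the deposited tables by matching symbols to Ensembl identifiers. All 10 also passed the filter on low counts, which kept 17014 genes for testing.

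The study used RD cells, a human line established from an embryonal rhabdomyosarcoma, and sequenced poly(A) RNA after knockdown of TRPS1, a zinc finger repressor of the GATA family. Its 9 libraries, 3 in each group, came from cells with the non-targeting hairpin shNT or with shTRPS1#1 or shTRPS1#2, inducible hairpins to TRPS1. All groups, controls included, received doxycycline (1 µM) and were kept in growth medium (10% fetal bovine serum) for 2 days before a switch to differentiation medium (2% horse serum) for 10 days. No library without doxycycline or from growth medium was analysed here, and whether a group's libraries stem from separate cultures is not stated; p-values therefore measure the spread between these libraries only, which may be technical.

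Totals ran from 21965744 to 23289062 counts per library. TRPS1 stood at 73.5 ± 3.29 CPM (counts scaled to library size, SD, n = 3) with shNT, 57.8 ± 3.42 CPM with shTRPS1#1 and 57.4 ± 1.39 CPM with shTRPS1#2, a fall of its mRNA to 78.6% and 78.0% of the shNT level (edgeR's adjusted p = 2.27e-08 and 1.02e-08), with no overlap between the knockdown and control libraries. Of 10 rhabdomyoblast markers, 8 had at least 10 counts in every library of each group, while MYF5 and MYF6 had at most 1 and 9 counts in any library. Markers of other cell types were low: summed over 4 genes each, blood markers reached at most 0.0439 RPKM in any library, endothelial markers 1.39 RPKM and epithelial markers 2.91 RPKM.

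In this pathway, receptor tyrosine kinases load RAS proteins with GTP, RAS activates the RAF, MEK and ERK kinases in turn, and ERK enters the nucleus and changes transcription. Among the genes that ERK induces are its own inhibitors: dual-specificity phosphatases remove phosphate from ERK, and Sprouty and SPRED proteins act between the receptor and RAF. For this reason the transcripts of DUSP6, SPRY2, SPRY4, ETV4 and ETV5 are often read as a gauge of ERK output in tumour cells. RD cells are known to carry an activating NRAS mutation, and sustained RAS and ERK activity is known to hold back the differentiation of myoblasts. Protein levels and ERK phosphorylation were not analysed here.

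In control cells these genes spanned a wide range of levels per length, in RPKM (reads scaled to gene length and library size, as deposited). DUSP6 led with 136 ± 5.01 RPKM with shNT (SD, n = 3), followed by SPRY2 with 125 ± 3.25, SPRY4 with 80.5 ± 1.39, SPRY1 with 48.0 ± 0.931 and DUSP4 with 40.7 ± 0.556 RPKM. Below them came NRAS at 36.5 ± 1.75 RPKM, ETV4 at 32.6 ± 1.32, ETV5 at 17.0 ± 0.329 and SPRED1 at 12.6 ± 0.244 RPKM. DUSP5 was far lower, at 2.28 ± 0.189 RPKM. No neighbours in this order overlapped among the shNT libraries. With shTRPS1#1 the libraries of DUSP6 (108.9 to 114 RPKM) and SPRY2 (108 to 112 RPKM) overlapped, and with either hairpin the libraries of NRAS and DUSP4 overlapped, those of NRAS spanning 36.6 to 38.5 RPKM with shTRPS1#1 and 37.1 to 39.8 RPKM with shTRPS1#2.

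**Figure D1:**
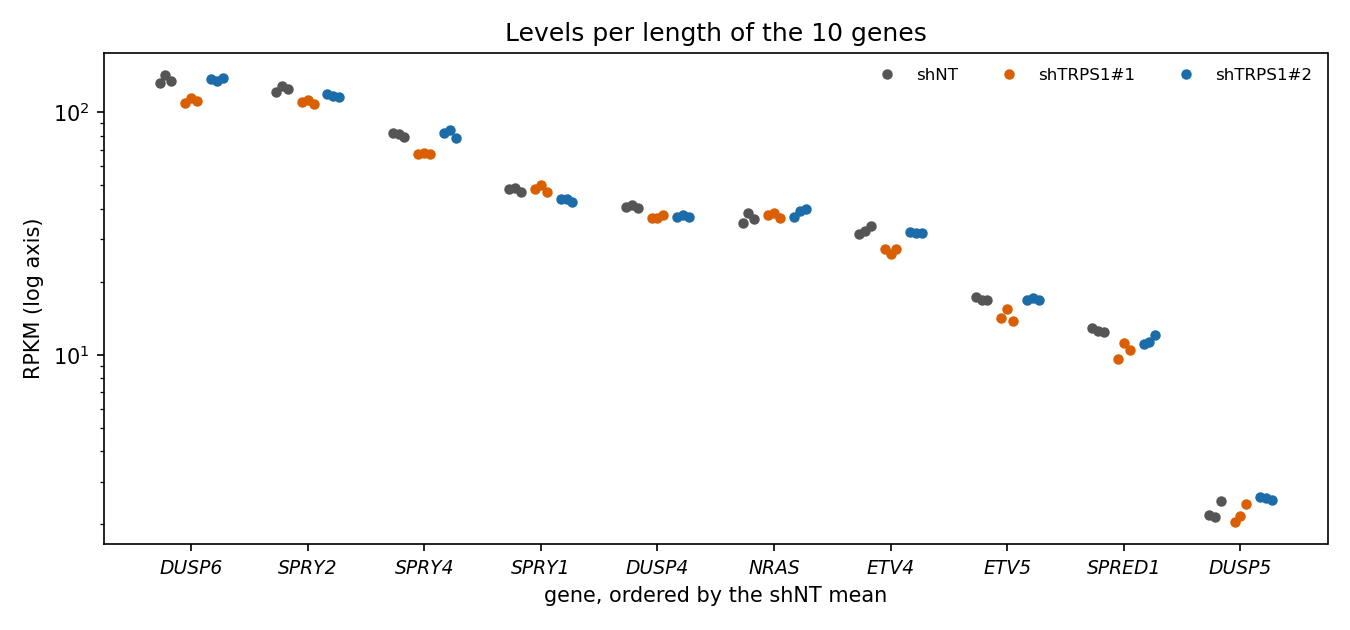
RPKM of the 10 genes in each library (points, log axis), with genes ordered by their shNT mean and 3 libraries in each group. Levels fall from 136 RPKM for DUSP6 to 2.28 RPKM for DUSP5 in the shNT mean, and the groups differ by far less than the genes do.

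DUSP4 was not looked up in RefSeq's promoter table (GRCh38.p14, 250 bases before to 50 after a start site). DUSP5, ETV4 and ETV5 had no entry in it. The 9 windows found belonged to the other 6 genes: NRAS, DUSP6, SPRED1 and SPRY4 with 1 each, SPRY1 with 2 and SPRY2 with 3. They were searched on both strands for 4 motifs: AGATAA, a site of the GATA family to which TRPS1 belongs; CCGGAA, an ETS core; TGANTCA, the AP-1 site; and TGACGTCA, the cAMP response element. AGATAA was in the NRAS window and in 10.3% of all 35116 windows of the table. CCGGAA was in 3 of the 9 windows, 1 each of NRAS, SPRY1 and SPRY2, and in 17.2% of all windows. TGANTCA (7.71% of all windows) and TGACGTCA (1.85%) were in none of the 9. Windows are shown for NRAS, which was not called with either hairpin, for SPRY2, which was called lower with each, and for DUSP6 and SPRY4, which were called lower with shTRPS1#1 alone; capitals mark the motif matches, and all 4 lie on the minus strand, at chr1:114716722-114717021, chr13:80341077-80341376, chr12:89352452-89352751 and chr5:142324198-142324497.
NRAS: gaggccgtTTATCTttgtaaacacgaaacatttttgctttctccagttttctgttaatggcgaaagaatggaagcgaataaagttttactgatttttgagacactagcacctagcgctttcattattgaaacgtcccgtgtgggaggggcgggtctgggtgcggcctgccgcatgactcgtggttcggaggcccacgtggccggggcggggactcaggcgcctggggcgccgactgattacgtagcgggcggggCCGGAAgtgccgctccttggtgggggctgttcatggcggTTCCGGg
SPRY2: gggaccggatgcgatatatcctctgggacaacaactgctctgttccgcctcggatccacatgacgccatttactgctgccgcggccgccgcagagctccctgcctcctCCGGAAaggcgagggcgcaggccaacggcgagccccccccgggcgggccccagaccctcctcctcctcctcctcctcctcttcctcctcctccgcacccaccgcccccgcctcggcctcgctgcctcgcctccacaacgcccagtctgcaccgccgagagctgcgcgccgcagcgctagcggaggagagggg
DUSP6: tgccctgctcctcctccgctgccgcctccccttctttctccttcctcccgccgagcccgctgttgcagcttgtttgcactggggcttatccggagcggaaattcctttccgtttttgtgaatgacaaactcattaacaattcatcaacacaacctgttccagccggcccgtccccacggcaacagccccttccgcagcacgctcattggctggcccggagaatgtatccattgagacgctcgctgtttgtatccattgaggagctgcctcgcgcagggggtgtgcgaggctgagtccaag
SPRY4: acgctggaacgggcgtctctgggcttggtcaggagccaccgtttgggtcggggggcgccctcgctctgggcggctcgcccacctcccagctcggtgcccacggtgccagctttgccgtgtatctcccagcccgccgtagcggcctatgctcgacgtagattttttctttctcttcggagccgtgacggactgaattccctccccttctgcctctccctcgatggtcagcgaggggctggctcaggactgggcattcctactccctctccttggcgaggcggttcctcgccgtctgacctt

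In NRAS the AGATAA match, printed as its reverse complement, begins at position -242 from the start site, and the CCGGAA matches, the second also in reverse complement, begin at positions 4 and 43. The SPRY2 match begins at position -142. The DUSP6 and SPRY4 windows held none of the 4 motifs, and neither did the SPRED1 window or the SPRY2 windows that are not shown. In SPRY1, also not shown, a CCGGAA match begins at position -67. These are matches of letters in a short window, and factor binding was not measured here.

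With shTRPS1#1, 7 of the 10 genes fell and none rose, against 6.33% of the genes tested that were called lower and 7.1% that were called higher. Those that fell were DUSP4, DUSP6, SPRY2, SPRY4, SPRED1, ETV4 and ETV5, by a log2 fold change of -0.13 to -0.28. With shTRPS1#2, 4 of the 10 fell and none rose, against 9.87% called lower and 9.01% called higher among all genes. Those were DUSP4, SPRY1, SPRY2 and SPRED1, by -0.10 to -0.15. For these 4, from 17.8% (SPRY1) to 26.2% (SPRY2) of all genes tested had a lower fold change. The count of genes called was 2 without shTRPS1#2 replicate 2 and in limma on log2(RPKM + 0.5). The median of the 10 was -0.20 with shTRPS1#1 and -0.02 with shTRPS1#2, beside 0.00 and -0.01 for all genes. Calls here are those of edgeR's quasi-likelihood test with the p-value adjusted by Benjamini-Hochberg over all 17014 genes and a threshold of 0.05, and both contrasts share the shNT libraries.

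**Figure D2:**
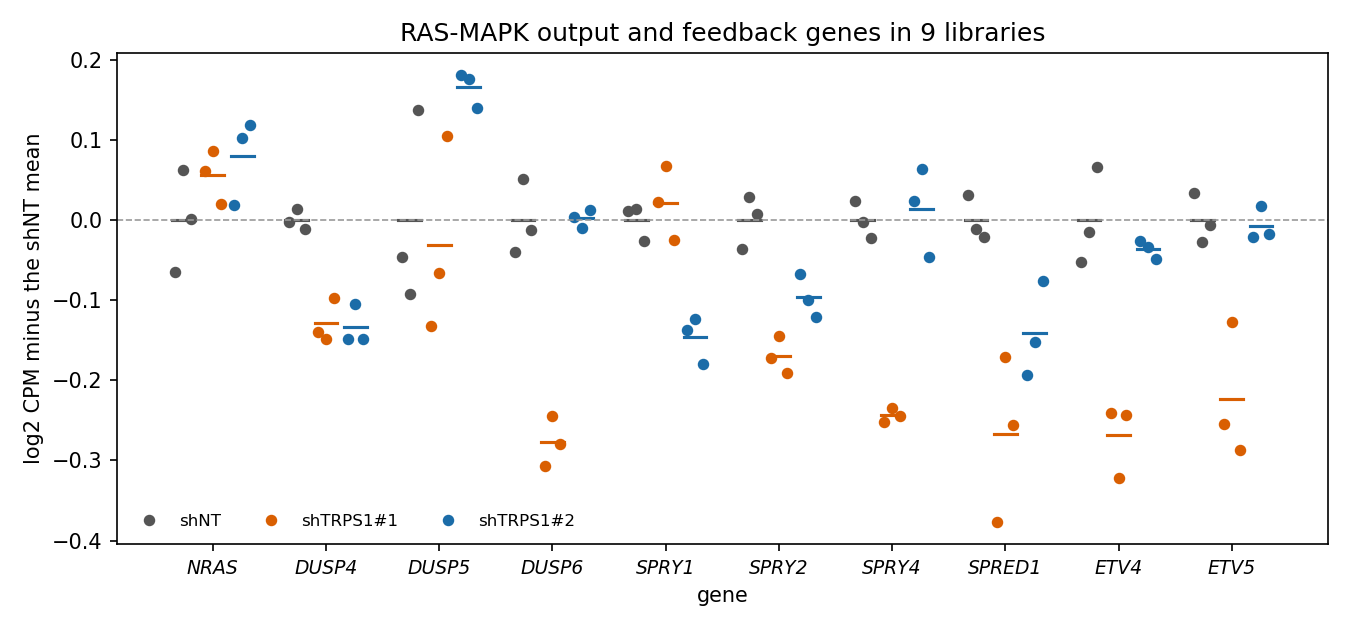
Log2 CPM of the 10 genes in every library, relative to the mean of the 3 shNT libraries (dashed line at 0); short bars are group means. The shTRPS1#1 libraries of DUSP6, SPRY2, SPRY4, ETV4 and ETV5 lie below all others. DUSP4, SPRY2 and SPRED1 are lower with both hairpins.

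NRAS, the small GTPase at the head of the cascade (ENSG00000213281, chromosome 1, 114704469 to 114716894, minus strand, GRCh38), was not called in any contrast. Its levels were 151, 165 and 158 CPM with shNT, 165, 167 and 159.9 CPM with shTRPS1#1, and 159.8, 169 and 171 CPM with shTRPS1#2. The groups overlapped in every comparison. The log2 fold change was 0.05 with shTRPS1#1 (95% interval -0.02 to 0.13, edgeR's adjusted p = 0.392) and 0.08 with shTRPS1#2 (0.006 to 0.15, edgeR's adjusted p = 0.132). The shTRPS1#2 value was called without shNT replicate 2 (0.12, edgeR's adjusted p = 0.0429). The hairpins differed by 0.02 (interval -0.05 to 0.10, edgeR's adjusted p = 0.709).

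Of the ERK phosphatases, DUSP6 and DUSP4 were called lower with at least 1 hairpin and DUSP5 with neither. DUSP6, the cytoplasmic phosphatase specific for ERK (ENSG00000139318, chromosome 12, 89347232 to 89353271, minus strand), had 510.0, 543 and 519.7 CPM with shNT, 423, 442 and 432 CPM with shTRPS1#1, and 525, 520.3 and 529 CPM with shTRPS1#2. All 3 shTRPS1#1 libraries lay below all 6 others, and shTRPS1#2 overlapped shNT. It changed by -0.28 ± 0.03 (log2, SE) with shTRPS1#1 (edgeR's adjusted p = 1.32e-09), leaving 82.5% of the control level, and 0.002 ± 0.03 with shTRPS1#2 (edgeR's adjusted p = 0.981; 95% interval -0.06 to 0.06). Between the hairpins it was higher with shTRPS1#2 by 0.28 ± 0.03 (edgeR's adjusted p = 1.08e-09). In GENCODE 29 the antisense gene AC024909.2 overlaps 1875 exonic bases of DUSP6. It held 22 to 36 counts per library, against at least 9447 for DUSP6. Whether reads were counted by strand is not given, so a loss of DUSP6 reads in the shared bases was not assessed. The deposited RPKM imply a DUSP6 length of 3859 bases, against 4632 in GENCODE 29.

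DUSP4, a nuclear phosphatase that acts on ERK and other MAP kinases (ENSG00000120875, chromosome 8, 29333064 to 29350668, minus strand), had 295, 299 and 294 CPM with shNT, 269, 267 and 277 CPM with shTRPS1#1, and 267, 275 and 267 CPM with shTRPS1#2. Both knockdown groups lay below every control library and overlapped each other. It fell by 0.13 ± 0.03 on the log2 scale with each hairpin (edgeR's adjusted p = 0.00293 with shTRPS1#1 and 0.00147 with shTRPS1#2), to 91.5% and 91.1% of the shNT level. The difference between the hairpins was -0.005 (95% interval -0.07 to 0.06, edgeR's adjusted p = 0.94). DUSP4 was lower with either hairpin, whereas DUSP6 was lower with shTRPS1#1 alone.

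DUSP5, a nuclear phosphatase specific for ERK (ENSG00000138166, chromosome 10, 110497838 to 110511544, plus strand), had by far the fewest counts of the 10 genes. It had 127, 122 and 145 counts in the shNT libraries, 117, 122 and 143 in those with shTRPS1#1, and 144, 145 and 143 in those with shTRPS1#2. It was not called in any contrast, and its intervals were the widest of the 10 genes, -0.25 to 0.19 with shTRPS1#1 and -0.05 to 0.38 with shTRPS1#2 on the log2 scale. The shTRPS1#2 libraries lay just above all others by CPM (6.35 to 6.53, against 5.39 to 6.34 with shNT), but the difference of 0.16 was not called (edgeR's adjusted p = 0.322). The shTRPS1#1 interval takes in a fall of the size seen for DUSP4 (-0.13). The DUSP6 estimate (-0.28) lies outside it, and the DUSP6 interval (-0.34 to -0.21) overlaps it. Whether DUSP5 and DUSP6 differ in their change was not tested.

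**Figure D3:**
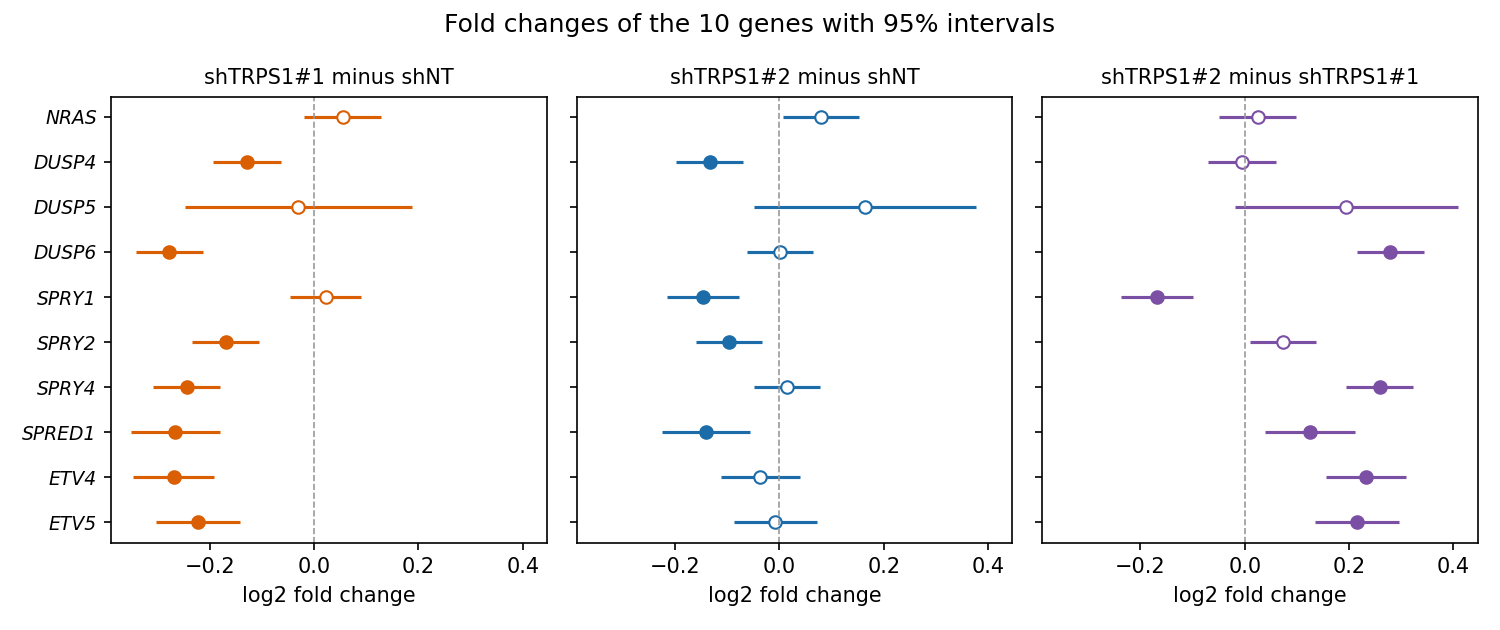
Log2 fold changes of the 10 genes (points) with 95% intervals (lines) in 3 contrasts, from edgeR; filled points are called at an adjusted p under 0.05 over all genes. With shTRPS1#1 there are 7 filled points, all below 0; with shTRPS1#2 there are 4, all below 0; and between the hairpins 5 lie above 0 and SPRY1 lies below it.

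SPRY1, SPRY2, SPRY4 and SPRED1, whose proteins restrain signalling between receptors and RAF, were each called lower with at least 1 hairpin. SPRY4 (ENSG00000187678, chromosome 5, 142310427 to 142326455, minus strand) had 537, 527 and 520.1 CPM with shNT, 443, 449 and 446 CPM with shTRPS1#1, and 537, 552 and 512 CPM with shTRPS1#2. The shTRPS1#1 libraries lay below all others, and shTRPS1#2 overlapped shNT. The log2 fold change was -0.24 ± 0.03 with shTRPS1#1 (edgeR's adjusted p = 4.04e-08) and 0.01 ± 0.03 with shTRPS1#2 (edgeR's adjusted p = 0.812; 95% interval -0.05 to 0.08), and the hairpins differed by 0.26 ± 0.03 (edgeR's adjusted p = 8.33e-09). The values of SPRY4 lay close to those of DUSP6 in each contrast.

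SPRY2 (ENSG00000136158, chromosome 13, 80335976 to 80340951, minus strand) was lower with both hairpins. Its levels were 389.8, 408 and 402 CPM with shNT, 355, 362 and 350.3 CPM with shTRPS1#1, and 381, 373 and 368 CPM with shTRPS1#2. The 3 groups did not overlap, and shTRPS1#2 lay between the others. The fold change was -0.17 ± 0.03 with shTRPS1#1 (edgeR's adjusted p = 5.84e-05) and -0.10 ± 0.03 with shTRPS1#2 (edgeR's adjusted p = 0.0252), and the difference between the hairpins was not called (0.07, 95% interval 0.01 to 0.14, edgeR's adjusted p = 0.102), though it was with library totals only (0.0423) and in limma with the RPKM filter (0.0494). For shTRPS1#2 the call did not hold without shNT replicate 2 (edgeR's adjusted p = 0.138) or 3 (0.0863), without shTRPS1#2 replicate 2 (0.106) or 3 (0.101), and in limma on log2(RPKM + 0.5) (0.0509).

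SPRY1 was the gene that moved with shTRPS1#2 and not with shTRPS1#1 (ENSG00000164056, chromosome 4, 123396795 to 123403760, plus strand). It had 192, 192 and 187 CPM with shNT, 193, 199 and 187 CPM with shTRPS1#1, and 173, 175 and 168 CPM with shTRPS1#2. The shTRPS1#2 libraries lay below all 6 others, which overlapped. It was at 0.02 with shTRPS1#1 (95% interval -0.05 to 0.09, edgeR's adjusted p = 0.77), fell by 0.15 ± 0.03 with shTRPS1#2 (edgeR's adjusted p = 0.00117), and was lower with shTRPS1#2 than with shTRPS1#1 by -0.17 ± 0.03 (edgeR's adjusted p = 0.000182). Its direction between the hairpins was the reverse of those of DUSP6 and SPRY4.

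SPRED1, which brings the RAS inhibitor neurofibromin to the membrane (ENSG00000166068, chromosome 15, 38252326 to 38357249, plus strand), had a wider relative spread in the knockdown groups than SPRY1, SPRY2 and SPRY4. It had 99.8, 97.0 and 96.3 CPM with shNT, 75.2, 86.8 and 81.8 CPM with shTRPS1#1, and 85.4, 87.9 and 92.6 CPM with shTRPS1#2. Both knockdown groups lay below every control library and overlapped each other. The fold change was -0.27 ± 0.04 with shTRPS1#1 (edgeR's adjusted p = 3.01e-06) and -0.14 ± 0.04 with shTRPS1#2 (edgeR's adjusted p = 0.0124), and the hairpins were 0.13 ± 0.04 apart (edgeR's adjusted p = 0.0295). For shTRPS1#2 the call did not hold without shTRPS1#2 replicate 1 (edgeR's adjusted p = 0.0947) or 2 (0.0643) and in limma (0.106 to 0.116). The difference between the hairpins fell to 0.08 without shTRPS1#1 replicate 1 (edgeR's adjusted p = 0.298) and was also not called without shTRPS1#1 replicate 3 (0.0687) or shTRPS1#2 replicate 3 (0.143), in DESeq2 (adjusted p = 0.0605) or in limma (0.0966 to 0.105).

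ETV4 and ETV5, ETS factors of the PEA3 group whose transcripts are induced by FGF and ERK signalling, fell with shTRPS1#1 and not detectably with shTRPS1#2. ETV4 (ENSG00000175832, chromosome 17, 43527844 to 43579620, minus strand) had 110.4, 113 and 119.8 CPM with shNT, 96.8, 91.5 and 96.7 CPM with shTRPS1#1, and 112, 112 and 111 CPM with shTRPS1#2. ETV5 (ENSG00000244405, chromosome 3, 186046308 to 186110318, minus strand) had 100.4, 96.2 and 97.5 CPM with shNT, 82.2, 89.7 and 80.3 CPM with shTRPS1#1, and 96.6, 99.2 and 96.8 CPM with shTRPS1#2. For both genes every shTRPS1#1 library lay below the other 6, and shTRPS1#2 overlapped shNT.

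For ETV4 the fold change was -0.27 ± 0.04 with shTRPS1#1 (edgeR's adjusted p = 2.75e-07) and -0.04 ± 0.04 with shTRPS1#2 (edgeR's adjusted p = 0.568; 95% interval -0.11 to 0.04). For ETV5 it was -0.22 ± 0.04 (edgeR's adjusted p = 3.14e-05) and -0.007 ± 0.04 (edgeR's adjusted p = 0.93; interval -0.09 to 0.07). Both were higher with shTRPS1#2 than with shTRPS1#1, ETV4 by 0.23 ± 0.04 (edgeR's adjusted p = 5.27e-06) and ETV5 by 0.21 ± 0.04 (edgeR's adjusted p = 4.66e-05). Exons of ETV4 share 68 bases with DHX8, a gene on the other strand with 2654 to 2917 counts per library. Whether reads were counted by strand is not given in the sources used here.

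Compared directly between the hairpins, 5 of the 10 genes were higher with shTRPS1#2 (DUSP6, SPRY4, SPRED1, ETV4 and ETV5), against 8.9% of all genes, and 1 lower (SPRY1), against 10.7%. Proliferation markers moved across the same groups: 3 of 10 rose and 0 fell with shTRPS1#1, all 10 fell with shTRPS1#2, all 10 were lower with shTRPS1#2 than with shTRPS1#1, and their summed level was 231 to 248 RPKM with shTRPS1#1, 173 to 189 RPKM with shTRPS1#2 and 222 to 241 RPKM with shNT. Of 8 rhabdomyoblast markers tested, 7 were called higher and 0 lower with shTRPS1#1, against 5 higher and 1 lower with shTRPS1#2. Their summed level was 1976 to 2075 RPKM with shNT, 2533 to 2600 RPKM with shTRPS1#1 and 2419 to 2481 RPKM with shTRPS1#2. Of 4 epithelial markers, KRT8 (11 to 35 counts per library) and KRT18 (109 to 182 counts) were tested, and both were higher with shTRPS1#2 than with shTRPS1#1 (0.85 ± 0.26 and 0.40 ± 0.11); KRT8 was also lower with shTRPS1#1 than with shNT (-0.74 ± 0.26), while EPCAM had at most 8 counts and CDH1 at most 3. The summed epithelial level was 2.12 to 2.31 RPKM with shNT, 1.76 to 2.22 RPKM with shTRPS1#1 and 2.21 to 2.91 RPKM with shTRPS1#2. Of 4 endothelial markers, TEK alone was tested and rose with shTRPS1#2 (0.43 ± 0.12), with a summed level of 0.855 to 0.977, 0.905 to 1.21 and 1.15 to 1.39 RPKM in the same order of groups. The part of any of these markers in the values of the 10 genes was not tested. In RNA from a whole culture, fewer cells that express a gene and less RNA per cell cannot be told apart.

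Among themselves the genes were compared by the root mean square difference of their log2 CPM over the 9 libraries, each centred on its own mean. The closest pairs were DUSP6 with SPRY4 (0.0455), DUSP4 with SPRY2 (0.0457) and SPRY4 with ETV5 (0.0465), while the 2 ETV genes differed by 0.0753. For scale, DUSP6 itself varied by 0.134 about its mean and DUSP4 by 0.0647. The same measure was used to find the closest of 12823 genes to each of the 8 genes called in any contrast. For DUSP6 these were HSBP1 (0.0279) and HOXB7 (0.0324), for SPRY4 they were SH3BP5 (0.031) and PLXNA2 (0.0317), for ETV4 they were NGFR (0.025) and WSCD1 (0.0339), and for ETV5 they were AP5M1 (0.0192) and MYO6 (0.031). For SPRY1 the closest were CDK6 (0.0236) and USP21 (0.0237), for SPRY2 TPBG (0.02) and GLUL (0.0205), for DUSP4 TGIF2 (0.022) and NPR2 (0.0228), and for SPRED1 CCDC77 (0.0397) and ZNF260 (0.0425). None of these is in the pathway lists below.

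Around these genes, 117 others of the pathway were listed by role, of which 108 were tested. With shTRPS1#1, 19 were called higher and 23 lower (17.6% and 21.3%, beside 7.1% and 6.33% of all genes). With shTRPS1#2, 16 were called higher and 15 lower (14.8% and 13.9%, beside 9.01% and 9.87% of all genes). Their medians were 0.004 and -0.01 on the log2 scale. The counts of each list below stand beside the same all-gene shares, and most lists hold too few genes for a share to be read closely. Values below are log2 fold changes with shTRPS1#1 and then shTRPS1#2, each with its SE.

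**Figure D4:**
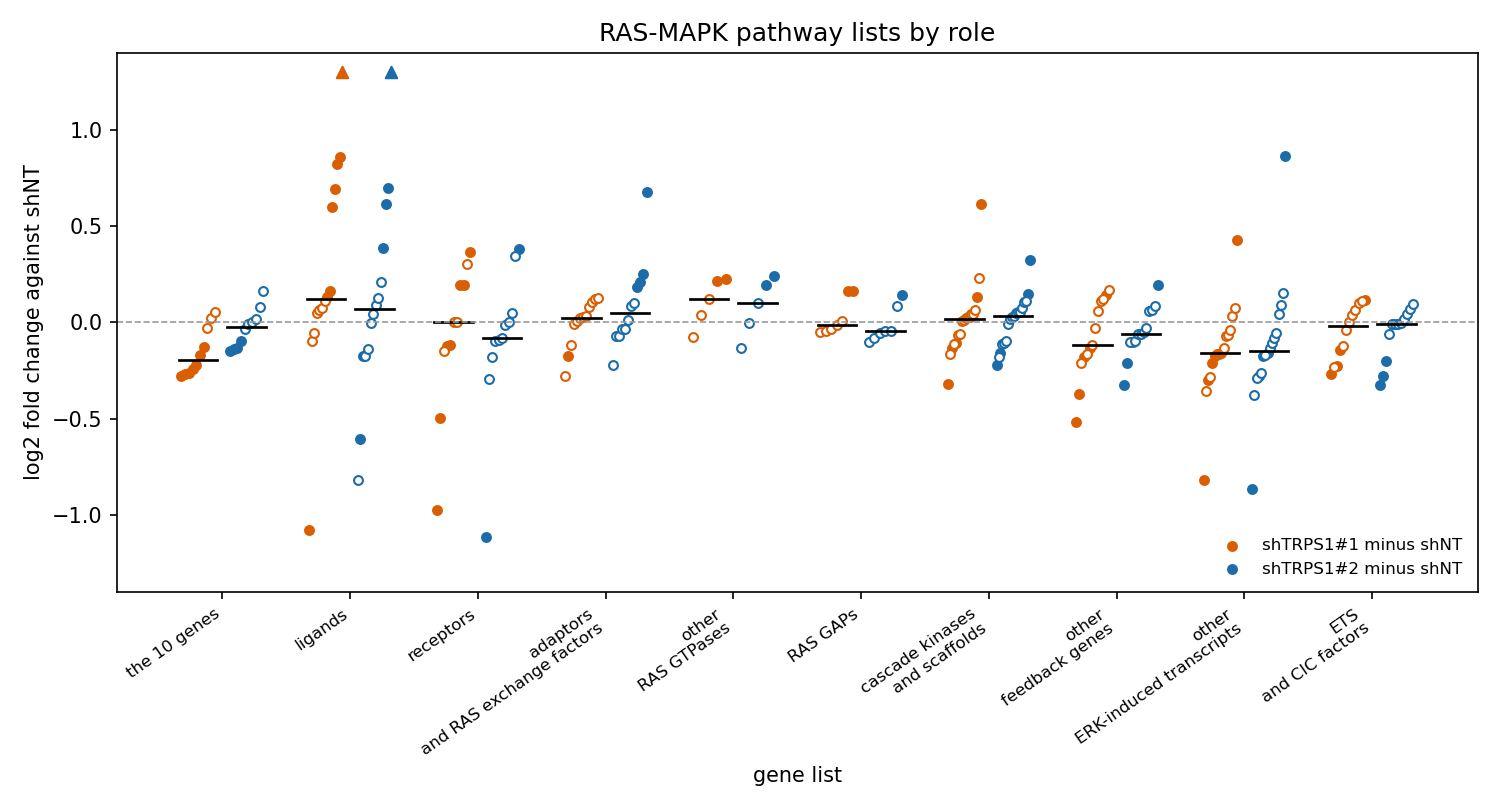
Log2 fold changes against shNT of the tested genes in each list, with shTRPS1#1 and shTRPS1#2 side by side; filled symbols are called, black bars are medians, and triangles at 1.3 are values above the axis limit (FGF10). The median of the 10 genes is -0.20 with shTRPS1#1 and -0.02 with shTRPS1#2, and the median of other ERK-induced transcripts is -0.16 and -0.15.

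Of 14 ligands tested, 7 were called higher and 1 lower with shTRPS1#1 (7.1% and 6.33% of all genes), against 4 higher and 2 lower with shTRPS1#2 (9.01% and 9.87% of all genes). The fibroblast growth factors FGF5 (0.16 ± 0.04 and 0.61 ± 0.04) and FGF7 (0.86 ± 0.09 and 0.39 ± 0.10) rose with each hairpin. FGF10 had 1 to 3 counts per library with shNT, 17 to 20 with shTRPS1#1 and 26 to 34 with shTRPS1#2, and was called higher with each. FGF1 rose with shTRPS1#2 (0.70 ± 0.06, beside 0.07 ± 0.06 with shTRPS1#1), whereas the platelet-derived growth factor PDGFC rose with shTRPS1#1 (0.69 ± 0.04, beside 0.04 ± 0.04 with shTRPS1#2). PDGFB fell with shTRPS1#2 (-0.60 ± 0.08, beside -0.05 ± 0.08 with shTRPS1#1). PDGFA, named after its values were seen, rose with shTRPS1#1 (0.13 ± 0.04) and fell with shTRPS1#2 (-0.18 ± 0.04). All 5 of FGF1, FGF5, FGF7, PDGFB and PDGFC differed between the hairpins (edgeR's adjusted p from 1.08e-17 to 2.75e-05).

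Of 11 receptors, 3 were called higher and 4 lower with shTRPS1#1, against 1 higher and 1 lower with shTRPS1#2. ERBB3, a receptor for neuregulins, rose (0.19 ± 0.04 and 0.38 ± 0.04), and the receptor kinase ALK fell (-0.98 ± 0.09 and -1.11 ± 0.10). The FGF receptor FGFR1, at 25.2 ± 0.252 RPKM with shNT, fell with shTRPS1#1 (-0.12 ± 0.03), beside -0.08 ± 0.03 with shTRPS1#2 (edgeR's adjusted p = 0.06). EGFR and PDGFRB rose with shTRPS1#1 (0.20 ± 0.04 and 0.37 ± 0.07) and were at -0.09 ± 0.04 and -0.18 ± 0.07 with shTRPS1#2.

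Of 12 adaptors and exchange factors, 0 rose and 1 fell with shTRPS1#1, the adaptor SHC1 (-0.18 ± 0.03, and -0.07 ± 0.03 with shTRPS1#2). With shTRPS1#2 4 were called higher and 0 lower, among them the exchange factor RASGRP3 (0.68 ± 0.09) and the phosphatase PTPN11, or SHP2 (0.18 ± 0.03). Of 5 other RAS GTPases, 2 rose and 0 fell with each hairpin: MRAS rose with both (0.22 ± 0.04 and 0.20 ± 0.04), RRAS2 with shTRPS1#1 (0.22 ± 0.07) and HRAS with shTRPS1#2 (0.24 ± 0.05). Of 7 RAS GTPase activating proteins, 2 were called higher and 0 lower with shTRPS1#1, against 1 higher and 0 lower with shTRPS1#2; RASAL2 rose with both (0.16 ± 0.04 and 0.14 ± 0.04), and DAB2IP rose with shTRPS1#1 (0.16 ± 0.04).

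Of 18 cascade kinases and scaffolds, 2 were called higher and 3 lower with shTRPS1#1, against 2 higher and 2 lower with shTRPS1#2. The ribosomal S6 kinase RPS6KA2 rose with both (0.62 ± 0.05 and 0.15 ± 0.05). SHOC2, a scaffold that helps to activate RAF, fell with shTRPS1#1 (-0.32 ± 0.05), beside 0.11 ± 0.04 with shTRPS1#2, and the hairpins differed by 0.43 ± 0.05 (edgeR's adjusted p = 2.16e-10). The scaffold KSR1 rose with shTRPS1#1 (0.13 ± 0.04). The MEK1 gene MAP2K1, named after its values were seen, was called in opposite directions: it fell with shTRPS1#1 (-0.14 ± 0.03, edgeR's adjusted p = 0.00118) and rose with shTRPS1#2 (0.32 ± 0.03, edgeR's adjusted p = 7.93e-12).

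Of 13 other feedback genes, 1 was called higher and 4 lower with shTRPS1#1 (median -0.12; 7.1% and 6.33% of all genes), against 1 higher and 3 lower with shTRPS1#2 (median -0.06; 9.01% and 9.87% of all genes). SPRED2, a relative of SPRED1, fell with both (-0.13 ± 0.03 and -0.10 ± 0.03), and DUSP16, a phosphatase that acts on JNK and p38, rose with both (0.14 ± 0.05 and 0.19 ± 0.05). IL17RD, or Sef, an inhibitor of FGF receptor signalling, fell with shTRPS1#1 (-0.52 ± 0.03, edgeR's adjusted p = 1.71e-17), beside -0.06 ± 0.03 with shTRPS1#2 (edgeR's adjusted p = 0.242). ERRFI1, an inhibitor of the EGF receptor, was at -0.37 ± 0.03 (called) and -0.05 ± 0.03 (not called). Both were higher with shTRPS1#2 than with shTRPS1#1, by 0.46 ± 0.03 and 0.32 ± 0.03 (edgeR's adjusted p = 1.43e-15 and 2.11e-10), the direction of DUSP6 and SPRY4. DUSP10 fell with shTRPS1#2 (-0.33 ± 0.07).

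Of 16 other transcripts that ERK is known to induce, 1 was called higher and 7 lower with shTRPS1#1 (median -0.16; 7.1% and 6.33% of all genes), against 1 higher and 4 lower with shTRPS1#2 (median -0.15; 9.01% and 9.87% of all genes). Cyclin D1, CCND1, fell most with each hairpin (-0.82 ± 0.04 and -0.86 ± 0.04), and the chromatin protein HMGA2 (-0.30 ± 0.03 and -0.28 ± 0.03) and the urokinase receptor PLAUR (-0.16 ± 0.04 and -0.18 ± 0.04) fell too. The ephrin receptor EPHA4 rose (0.43 ± 0.12 and 0.87 ± 0.12). ETV1, the third PEA3 factor, fell with shTRPS1#1 (-0.18 ± 0.03), beside -0.08 ± 0.03 with shTRPS1#2, and so did PHLDA1 (-0.16 ± 0.03, then -0.05 ± 0.03) and EPHA2 (-0.21 ± 0.05, then 0.04 ± 0.05). All 3 were higher with shTRPS1#2 than with shTRPS1#1 (edgeR's adjusted p = 0.0376, 0.00823 and 3.76e-05).

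Of 12 ETS and CIC factors, 1 was called higher and 3 lower with shTRPS1#1, against 0 higher and 3 lower with shTRPS1#2. ELK3 (-0.27 ± 0.04 and -0.33 ± 0.04) and the ETS repressor ERF (-0.15 ± 0.04 and -0.28 ± 0.04) fell with both. ETS1 fell with shTRPS1#1 (-0.23 ± 0.03), ELK1 fell with shTRPS1#2 (-0.20 ± 0.05), and ATXN1L, a partner of CIC, rose with shTRPS1#1 (0.12 ± 0.04). CIC itself, a repressor of ETV4 and ETV5 that ERK relieves, was named after its values were seen; it was at 0.06 ± 0.04 and 0.02 ± 0.04 and was not called.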

How the data were processed

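The authors deposited whole-number read counts per gene and RPKM values for 9 libraries. Per the submitters' processing notes the tools were STAR 2.7.2b, bcl2fastq 2.20.0.422 and featureCounts 1.6.5, and the build was GRCh38; neither the annotation release nor the counting's strand setting is given in the sources used here. Symbols matched 60357 of 60676 identifiers, and the others held 0.107% of counts. The deposited RPKM equalled counts divided by gene length and library total (largest relative deviation 4.5e-14).

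Counts were fitted with edgeR 4.0.16 (R 4.3.3; TMM, default filter at 10 counts, quasi-likelihood, a mean per group over all 9 libraries, 6 residual degrees of freedom). CPM used TMM-scaled totals. SE is the absolute log2 fold change over the square root of F, and intervals are 95%. Tests and intervals used the residual degrees of freedom plus those that edgeR adds from the spread over all genes. Replicates differed by more than counting noise (chi-square per degree of freedom 1.27 to 2.84). DESeq2 1.42.0 and limma 3.58.1 on log2 RPKM (pseudocount 0.5 or 1, or 0.5 with a filter at 1 RPKM in 3 libraries) were alternatives. Coordinates came from GENCODE 29 and promoters from RefSeq. The test was run on data simulated from its own model, with outcomes not reported here. The changes set there were larger than those of the 10 genes, so it is no check of their calls. The genes and lists were chosen with earlier results of these data known. Named were all 10 genes, TRPS1, list genes called alike with both hairpins, and up to 3 per list called with a single one (smallest adjusted p); a gene of the cascade list that this rule names is not reported here. PDGFA, MAP2K1, CIC and the marker genes were named outside the rule.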

Additional observations from a re-analysis of the deposited data

Results flagged for a closer look

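A difference between the hairpins was called for 6 of the 10 genes in the direct contrast of shTRPS1#2 with shTRPS1#1 (edgeR, adjusted over all genes), 5 higher and 1 lower, beside 8.9% and 10.7% of all genes. Higher with shTRPS1#2 were DUSP6 (0.28, adjusted p = 1.08e-09), SPRY4 (0.26, adjusted p = 8.33e-09), ETV4 (0.23, adjusted p = 5.27e-06), ETV5 (0.21, adjusted p = 4.66e-05) and SPRED1 (0.13, adjusted p = 0.0295). The SPRED1 call was lost in DESeq2, in each limma fit, and without shTRPS1#1 replicate 1, shTRPS1#1 replicate 3 or shTRPS1#2 replicate 3. SPRY1 was lower with shTRPS1#2 (-0.17, adjusted p = 0.000182). TRPS1 mRNA itself differed by -0.01 ± 0.05 between the hairpins (edgeR's adjusted p = 0.913). What separates the hairpins was not tested.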

How the results depend on the processing

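Across 18 alternatives, the 10 genes in 3 contrasts gave 540 values, of which 505 kept their direction and their side of the threshold. Among the alternatives are fits without a library of the group outside the contrast, in which the fold change hardly moves. The count of 7 genes called with shTRPS1#1 held under all 18. With shTRPS1#2 the 4 calls became 2 in limma on log2(RPKM + 0.5) and ranged from 2 to 4 when a library was left out, with the low value without shTRPS1#2 replicate 2. Those of the 10 called alike with both hairpins, whose contrasts share controls, went from 3 to 1 in the same limma fit and to 1 without that library. Of all 17014 genes tested, 992 were called alike in the main fit. The all-gene count was 703 in that limma fit and 829 without that library. Of the 108 pathway genes tested, those called alike went from 16 to 10 in limma with either pseudocount and 9 with the RPKM filter. They ranged from 10 to 16 without a library, with the low value without shNT replicate 2.

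The sign changed only for values that were not called. DUSP4 between the hairpins was 0.009096 with library totals only and 0.009022, 0.008903 and 0.009022 in the limma fits (pseudocounts 0.5 and 1, RPKM filter), and -0.015549 to 0.010277 without a library. TRPS1 between them was 0.003799, 0.004306, 0.003863 and 0.004306 in those fits, and -0.035171 to 0.03858 without a library. Without a library, DUSP5 (-0.103594 to 0.042961) and SPRY1 (-0.001389 to 0.045263) with shTRPS1#1 crossed 0, as did DUSP6 (-0.018352 to 0.031331), SPRY4 (-0.006224 to 0.048365) and ETV5 (-0.017448 to 0.009392) with shTRPS1#2.

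Same-numbered libraries correlated at -0.02 to 0.05 in their deviations from group means, and differently numbered ones at -0.06 to 0.04. The numbers were not taken as pairs, because the labels do not say that a number marks a shared culture or day. With the replicate number as a block, 7, 4 and 6 of the 10 genes were called in the 3 contrasts, as without it. For all genes 2505, 3434 and 3583 were called with the block, against 2285, 3213 and 3330.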
